A study of Mus musculus with 23 samples.

Results

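The genes described here encode proteins that change what a proteasome cuts, what opens it and what edits ubiquitin at its entrance. There were 10, chosen by gene symbol: the immunoproteasome subunits Psmb8, Psmb9 and Psmb10, the activators Psme1, Psme2, Psme3 and Psme4, the inhibitor Psmf1 and the deubiquitinases Usp14 and Uchl5. All 10 were found among 54446 genes of a raw count table and, by the same identifiers, among 15624 genes of a second table, and all 10 passed the filter on low counts of the first. RNA came from skeletal muscle of mice. The first set held innervated WT muscle (3 libraries), WT muscle at 10 d after denervation (3) and muscle of PAX4 KO mice at 10 d after denervation (3). The second set held muscle at 10 d after denervation only, from mice labelled WT con (2 libraries, numbers 2 and 3), NRF1 KD (3) and NRF1-PAX4 double KD (3). Genotype labels of the NRF1 KD and double KD mice spell the first target NRF1PAL. Alpha-PAL is another name of the factor encoded by Nrf1, whereas Nfe2l1 is a different gene that is also called NRF1. The labels give no age, sex, muscle, promoter or method of knockdown, nor whether the libraries of a group are separate animals. A p-value here therefore reflects library-to-library spread, part of which may be technical. The series title names the question, the control of proteasome genes by transcription factors.

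The 20S core of the proteasome carries 3 kinds of catalytic subunit, in standard form Psmb6, Psmb7 and Psmb5. Cells exposed to interferon build in Psmb9, Psmb10 and Psmb8 in their place, and the resulting immunoproteasome favours peptides that fit class I molecules. Psme1 and Psme2 form the ring PA28-alpha-beta, which interferon also induces. Psme3 forms PA28-gamma in the nucleus, and Psme4 is PA200, a single large activator of the core. Usp14 and Uchl5 bind the 19S regulatory particle, at Psmd2 and Adrm1, and trim ubiquitin chains before a substrate enters. Muscle fibres make mostly the standard proteasome, and immune cells that enter muscle carry much of the immunoproteasome.

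Depth was 21716216 to 42821396 counts a library in the first set and 23740769 to 30165765 recovered reads in the second, and no library of a group repeated another within sampling noise. Neither targeted gene checked the labels. No read of Pax4 was counted in any of the 9 libraries in which it was listed (0 counts, so up to 0.0701 to 0.138 CPM at 3 counts a library, counting error alone). Nrf1 stood at 488 and 444 normalised counts in WT con libraries and at 499, 476 and 524 in those labelled NRF1 KD, so groups are named by their labels. Innervated library 2 stood apart: Chrng, the fetal acetylcholine receptor subunit that denervated muscle makes, was at 16.0 CPM there and at 0.197 and 0.105 CPM in the other 2, against 84.5 to 155 CPM in denervated WT muscle. Several results that rest on this library are also given without it, while the mean levels and ratios of innervated muscle include it. The 7 markers of skeletal muscle were present in every library, with a sum of 86039 to 110035 CPM in innervated, 61607 to 72604 CPM in denervated WT and 51577 to 68450 CPM in PAX4 KO libraries.

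Per kilobase of merged exon, PA200 was the most abundant of the 10 in innervated muscle. Psme4 (chromosome 11, 30771726 to 30880361, GRCm38) stood at 35.7 ± 8.15 CPM per kilobase (SD, n = 3). The PA28 genes followed with 22.5 ± 0.894 for Psme1, 18.8 ± 0.459 for Psme3 and 17.4 ± 2.69 for Psme2. Psmb10 had 9.51 ± 1.93, Uchl5 7.15 ± 0.476, Usp14 6.30 ± 0.294 and Psmf1 2.94 ± 0.238 CPM per kilobase. Psmb8 and Psmb9 were lowest, with 1.87 ± 0.612 and 1.31 ± 0.664. The libraries of neighbours in this order overlapped for Psme3 and Psme2 and for Psmb8 and Psmb9, and for no other pair of neighbours. The standard subunits were above their immune counterparts on this scale: Psmb5 stood at 87.2 ± 13.9, Psmb6 at 70.2 ± 6.52 and Psmb7 at 40.2 ± 5.08 CPM per kilobase. The size of these gaps depends on the lengths, which merge all annotated exons (0.90 kb for Psmb5, 3.38 kb for Psmb8). Without division by length the means of Psmb5, Psmb6 and Psmb7 were 78.4, 131.4 and 137.5 CPM. Those of Psmb8, Psmb9 and Psmb10 were 6.33, 4.80 and 16.2 CPM. Psmb11, the thymus form of the Psmb5 position, had 0 to 7 reads a library.

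The same order held at its ends in denervated WT con muscle of the second set, in normalised counts per kilobase. Psme4 led with 1055 ± 8.85 (SD, n = 2) and Psme2 followed with 920 ± 75.7. Psme3 had 754 ± 25.8, Psme1 577 ± 66.3, Uchl5 564 ± 35.7, Usp14 377 ± 10.8 and Psmb10 282 ± 16.6. Psmf1 had 92.9 ± 1.57, Psmb8 77.1 ± 8.85 and Psmb9 29.9 ± 4.41 normalised counts per kilobase. The libraries of neighbours overlapped for Psme1 and Uchl5 only. The sets were scaled separately, so levels are compared within a set.

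**Figure D1:**
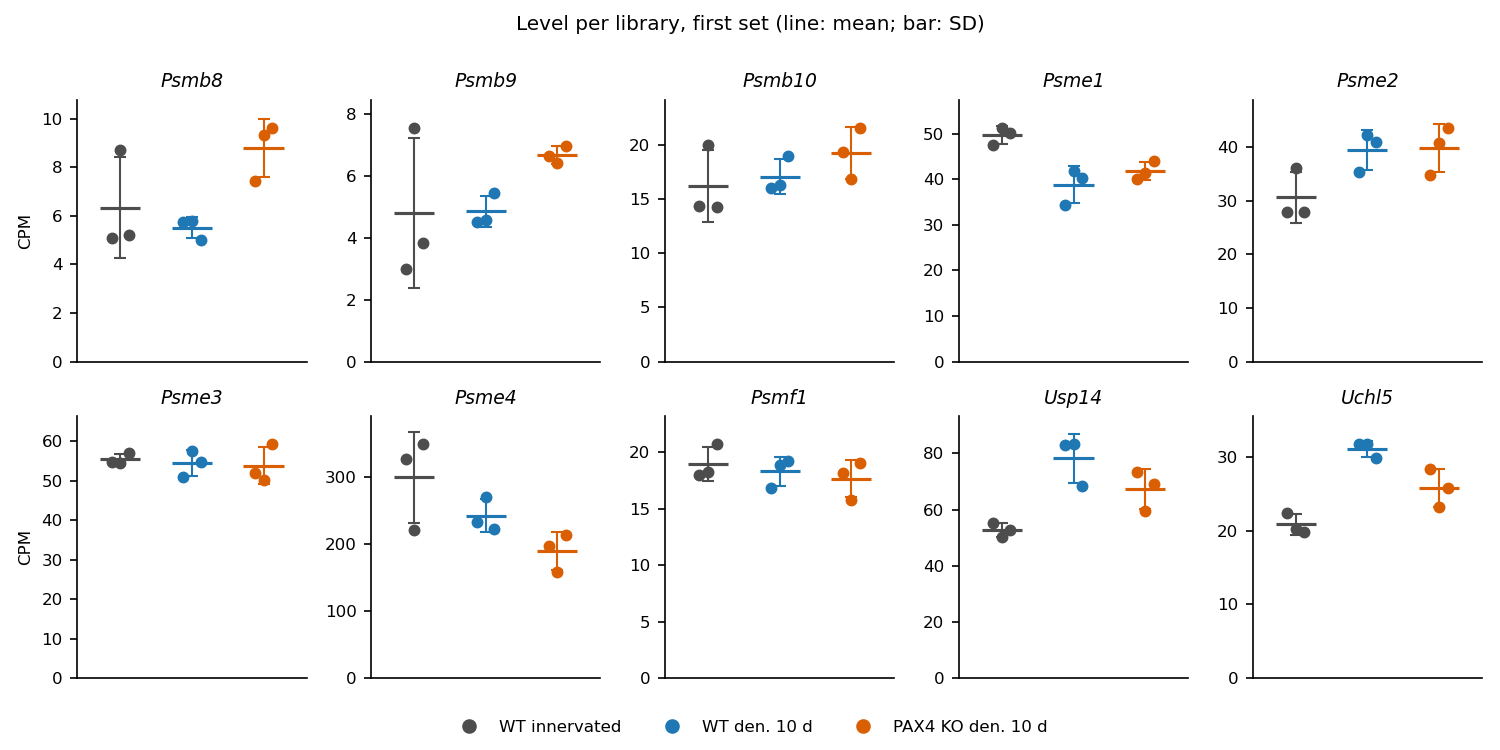
Level of each gene in CPM (vertical axes, from 0) in the 9 libraries of the first set; den. is denervated, points are libraries, lines are group means and bars are SDs. Usp14 and Uchl5 sit higher in all 3 denervated WT libraries than in innervated muscle, and innervated library 2 is the high innervated point for Psmb8, Psmb9 and Psmb10 and the low one for Psme4.

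The comparison of denervated with innervated WT muscle asks which of these genes follow loss of the nerve. Both deubiquitinases rose, Psme1 fell and 7 did not pass the test. Over all 16146 genes tested 16.5% rose and 15.8% fell, so calls were about as frequent among the 10 as elsewhere. In 3 of the 10 the groups did not overlap, beside 46.6% of all genes. The median log2 fold change of the 10 was -0.01, beside 0.02 over all genes tested.

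Usp14, a ubiquitin-specific protease that the proteasome activates, stood at 55.0, 50.1 and 52.7 CPM in innervated libraries 1 to 3 and at 83.2, 83.3 and 68.3 CPM in denervated ones. The 2 groups did not overlap, and Usp14 rose 1.49-fold (log2 fold change 0.57 ± 0.12 SE, edgeR, adjusted p = 0.00522). Uchl5, also called UCH37, a ubiquitin hydrolase docked on Adrm1, stood at 22.5, 20.3 and 19.9 CPM in innervated and at 31.8, 31.8 and 29.9 CPM in denervated muscle. It rose 1.495-fold (0.58 ± 0.10, adjusted p = 0.00233), again with no overlap. Both calls held in every alternative run for this comparison, including the fit without innervated library 2. Usp14 (chromosome 18, 9993066 to 10045119, GRCm38) shares 2169 of its 8345 exonic bases with Thoc1 on the other strand, and the strandedness of the counting is not given in the sources used here. Their docking sites rose too: Adrm1 by 0.53 ± 0.16 on the log2 scale (adjusted p = 0.0269) and Psmd2 by 0.42 ± 0.14 (adjusted p = 0.0420). Psmd14, the essential deubiquitinase of the 19S lid, rose by 0.50 ± 0.11 (adjusted p = 0.00840), and Pomp, the assembly factor of the core that also serves immunoproteasomes, rose by 0.81 ± 0.12 (adjusted p = 0.00115). The call for Adrm1 was lost without denervated library 2 or 3 or innervated library 1 or 3 (adjusted p = 0.0800 to 0.105), and that for Psmd2 without any single library other than denervated library 1 (0.0942 to 0.140).

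The partners of PA28-alpha-beta, which form 1 ring, did not move together. Psme1 stood at 47.5, 51.4 and 50.1 CPM in innervated and at 34.3, 41.9 and 40.3 CPM in denervated libraries. It was lower in all 3 denervated libraries and fell by 0.36 ± 0.10 on the log2 scale (edgeR, adjusted p = 0.0240). Psme2 stood at 27.98, 36.1 and 27.9 CPM in innervated and at 35.3, 42.2 and 41.0 CPM in denervated libraries. Its log2 fold change was 0.36 ± 0.14 and did not pass (adjusted p = 0.0631), and the groups overlapped through innervated library 2. The call for Psme1 was lost without denervated library 1, without any single innervated library or without the filter on low counts (adjusted p = 0.0509 to 0.0886 in these 5 fits), while Psme2 was called without innervated library 2 (0.50, adjusted p = 0.0183) or without denervated library 1 (0.44, adjusted p = 0.0481). Within a library the log2 ratio of Psme1 to Psme2, not corrected for length, was 0.76, 0.51 and 0.85 in innervated and -0.04, -0.01 and -0.03 in denervated muscle. This ratio was chosen after its values were seen and has no test. Psme1 and Psme2 lie on chromosome 14 (55578123 to 55581529 and 55587441 to 55591113, GRCm38) on opposite strands. The retrogene Psme2b had 5 to 18 reads a library, so few reads were counted there.

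The other activators and the inhibitor gave no call. Psme4 stood at 327, 221 and 349 CPM in innervated and at 233, 270 and 223 CPM in denervated libraries (log2 fold change -0.31 ± 0.18, adjusted p = 0.227). Innervated library 2 lay below all 3 denervated libraries and the other 2 lay above them. Without it Psme4 fell by 0.48 on the log2 scale (adjusted p = 0.0363). Psme3 was the steadiest of the activators, at 54.4 to 56.9 CPM in innervated and 51.0 to 57.5 CPM in denervated libraries (-0.03 ± 0.10). Psmf1, which encodes PI31 and binds the ends of the core, had 17.9 to 20.7 and 16.8 to 19.2 CPM (-0.05 ± 0.11).

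None of the 3 immunoproteasome subunits passed. Psmb8 stood at 5.07, 8.72 and 5.20 CPM in innervated and at 5.73, 5.79 and 4.999 CPM in denervated libraries (-0.21 ± 0.22, adjusted p = 0.495). Psmb9 stood at 3.01, 7.57 and 3.84 CPM and at 4.53, 4.59 and 5.44 CPM (0.00 ± 0.28). Psmb10 stood at 14.4, 20.01 and 14.2 CPM and at 16.0, 16.3 and 18.9 CPM (0.07 ± 0.15). Innervated library 2 was highest of the 6 for each of the 3 genes. Without it Psmb8 had a log2 fold change of 0.10 and Psmb9 of 0.50 (adjusted p = 0.690 and 0.0660). The standard subunit Psmb5 rose by 0.57 ± 0.19 on the log2 scale (adjusted p = 0.0393), while Psmb6 (0.37 ± 0.14, adjusted p = 0.0697) and Psmb7 (0.22 ± 0.15, adjusted p = 0.280) did not pass. The call for Psmb5 was lost without denervated library 2 or 3 or innervated library 1 or 3 (adjusted p = 0.0798 to 0.152).

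Genes of antigen presentation and of the interferon response went several ways in this comparison. Of 13 genes of class I antigen processing 3 rose, among them the chaperones Canx (0.62 ± 0.09) and Pdia3 (0.44 ± 0.14), and 0 fell in edgeR, with 3 at an unadjusted p under 0.05. Of 22 interferon response genes 2 rose, Irgm1 and Ifi27, and 3 fell, with Ifih1 and Gbp7 at the smallest adjusted p. Of these 22, 19 had negative and 3 positive fold changes. In edgeR 10 of the 22 had an unadjusted p under 0.05, beside 7006 of all 16146 genes tested. The list's median was -0.27 on the log2 scale. All 5 genes of class II presentation rose, by a median of 1.40 on the log2 scale. Leaving out innervated library 1 or 3 lowered the class II calls to 2 and the class I calls to 1, and class I also had 1 call without denervated library 1. Interferon genes called lower numbered 0 without innervated library 3 and 1 without innervated library 1 or denervated library 2 or 3. Those called higher numbered 1 without innervated library 1 or 3 or denervated library 2. The 13 macrophage markers had a summed level of 119 to 364 CPM in innervated and of 438 to 881 CPM in denervated WT libraries. The 7 skeletal muscle markers had a lower sum in every denervated WT library than in any innervated one, with Ckm and Myh4 lower and Des higher in edgeR. The part of both marker lists in the values above was not tested. Bulk RNA cannot tell fewer cells of a type from less RNA per cell.

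Muscle labelled PAX4 KO was set against WT muscle, both denervated, which asks how these genes differ with that label after loss of the nerve. No gene of the 10 passed, beside 0.0186% of all genes called higher (3 of 16146) and 0.0% called lower in edgeR. Among the 10, 2 had an unadjusted p under 0.05 in edgeR, Psmb8 and Uchl5, beside 2089 of all 16146 genes. DESeq2 called 0 of the 10. In 4 of the 10 the groups did not overlap, beside 16.9% of all genes.

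Psmb8 stood at 7.44, 9.32 and 9.63 CPM in PAX4 KO libraries 1 to 3, all above the 4.999 to 5.79 CPM of denervated WT muscle. Its log2 fold change was 0.68 ± 0.22 (adjusted p = 0.300). Psmb9 was at 6.65, 6.41 and 6.97 CPM against 4.53 to 5.44 CPM (0.46 ± 0.28, adjusted p = 0.4995), also with no overlap. Psmb10 was at 19.4, 16.8 and 21.6 CPM against 16.0 to 18.9 CPM, and the groups overlapped (0.18 ± 0.15). The sum of the 13 macrophage markers was 788, 1386 and 980 CPM in PAX4 KO and 881, 438 and 442 CPM in WT libraries, and each of the 13 had a positive fold change with 0 called. All 13 genes of class I antigen processing were also positive with 0 called, led by H2-D1 (0.73 ± 0.17, adjusted p = 0.264). Of 22 interferon response genes 19 were positive and 0 were called, led by Oasl2 (0.96 ± 0.15, adjusted p = 0.139) and Irf7 (1.26 ± 0.22, adjusted p = 0.169). Without the filter on low counts 4 interferon, 4 macrophage and 1 class I genes were called higher, and DESeq2 called 5 interferon and 2 class I genes. Without both innervated library 2 and denervated WT library 1, 1 gene of each of these 3 lists was called. The 6 fibroblast markers were all positive with 0 called, by a median of 0.61, and their sum was 2300, 5861 and 2409 CPM in PAX4 KO against 1913, 1474 and 1472 CPM in WT libraries, with no overlap. The part of the macrophage and fibroblast markers in these values was not tested.

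The deubiquitinases had negative fold changes. Uchl5 stood at 28.4, 23.3 and 25.9 CPM in PAX4 KO muscle, all below the 29.9 to 31.8 CPM of denervated WT muscle (-0.27 ± 0.10, adjusted p = 0.333). Usp14 stood at 73.4, 59.5 and 69.1 CPM against 68.3 to 83.3 CPM (-0.22 ± 0.12, adjusted p = 0.455). Psme4 was at 196, 158 and 213 CPM, below all 3 denervated WT libraries (-0.35 ± 0.18, adjusted p = 0.432). The remaining activators and Psmf1 lay between -0.05 and 0.11. Adrm1 (-0.12), Psmd2 (-0.19), Psmd14 (-0.17), Pomp (-0.21), Psmb5 (-0.11), Psmb6 (-0.22) and Psmb7 (-0.26) were all negative on the log2 scale and none passed.

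Against innervated muscle, denervated PAX4 KO muscle had 4 calls among the 10, beside 21.8% of all genes called higher and 18.2% called lower. In 4 of the 10 the groups did not overlap, beside 52.3%. Psme2 (0.38 ± 0.14, adjusted p = 0.0487), Usp14 (0.36 ± 0.12, adjusted p = 0.0358) and Uchl5 (0.31 ± 0.10, adjusted p = 0.0346) rose. Psme4 fell by 0.66 ± 0.18 on the log2 scale (edgeR, adjusted p = 0.0162), from 299 ± 68.3 to 189 ± 28.3 CPM (SD, n = 3). The call for Psme4 was lost without PAX4 KO library 2 or innervated library 1 or 3 (adjusted p = 0.0575 to 0.0623), and that for Psme2 without any of these or PAX4 KO library 3 (0.112 to 0.180). Usp14 was not called without PAX4 KO library 1 or 3 or any single innervated library (0.0684 to 0.124), nor Uchl5 without PAX4 KO library 1 or 3 or innervated library 2 or 3 (0.0745 to 0.133). Without innervated library 2 the call for Psme2 held. The 3 immunoproteasome subunits were called higher in that fit: Psmb8 by 0.78 (adjusted p = 0.00718), Psmb9 by 0.96 (adjusted p = 0.00369) and Psmb10 by 0.43 (adjusted p = 0.0344). With that library they stood at 0.47 ± 0.22, 0.46 ± 0.29 and 0.25 ± 0.16 (adjusted p = 0.110, 0.225 and 0.231). This comparison shares its innervated libraries with the first and its PAX4 KO libraries with the second. The 13 macrophage markers all rose here, by a median of 2.25.

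**Figure D2:**
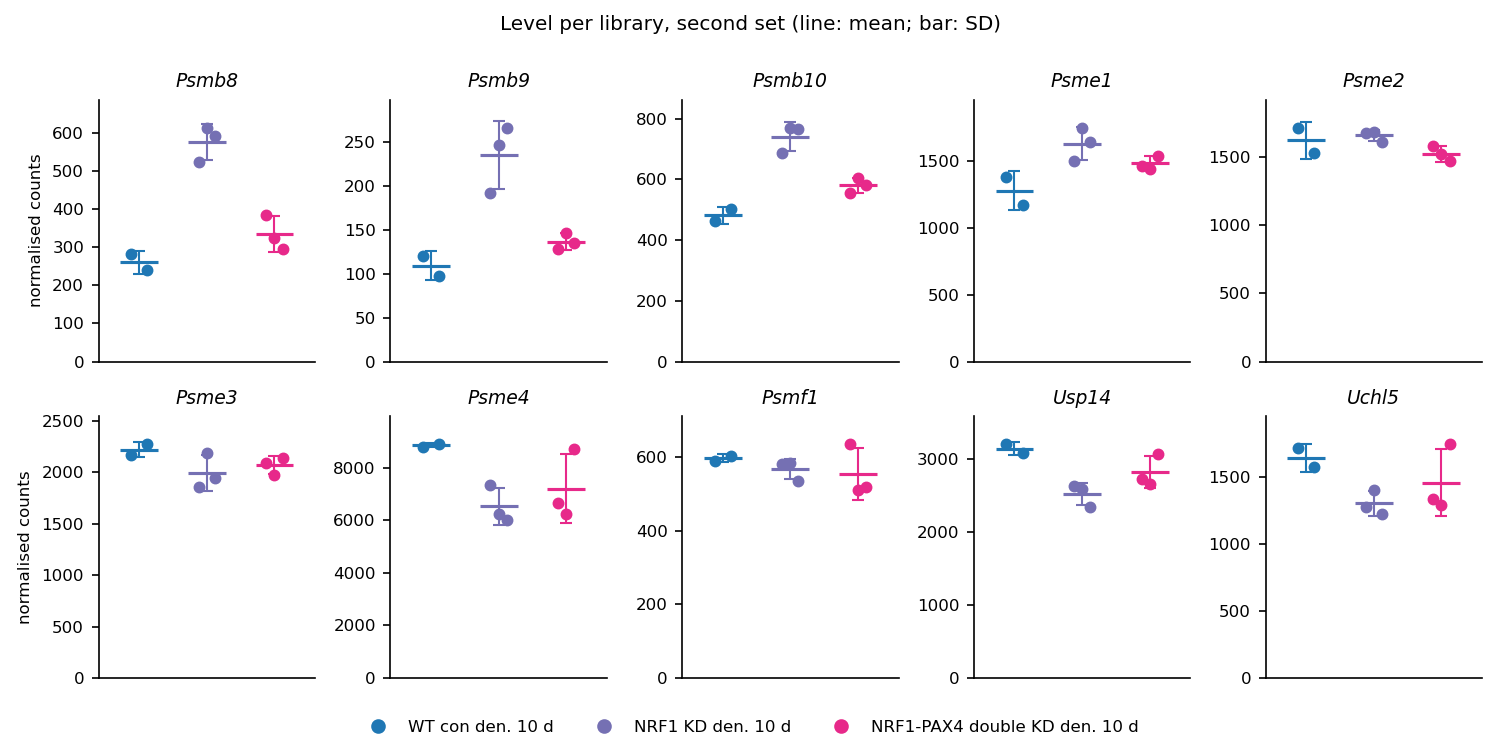
Level of each gene in normalised counts (vertical axes, from 0) in the 8 libraries of the second set; den. is denervated, points are libraries, lines are group means and bars are SDs. Psmb8, Psmb9 and Psmb10 sit higher in all 3 NRF1 KD libraries than in any other library of the set.

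The comparison of NRF1 KD with WT con muscle, both denervated, asks how these genes differ with that label, as Nrf1 RNA was not lower there. All 3 immunoproteasome subunits rose and the other 7 did not pass. Over all 15624 genes 7.58% were called higher and 3.72% lower. Psmb8 stood at 282 and 240 normalised counts in WT con libraries 2 and 3 and at 523, 614 and 593 in NRF1 KD libraries 1 to 3. It rose 2.21-fold (log2 fold change 1.14 ± 0.15 SE, limma, adjusted p = 0.00322). Psmb9 stood at 121 and 97.96 and at 192, 247 and 267 normalised counts and rose 2.13-fold (1.09 ± 0.20, adjusted p = 0.00911). Psmb10 stood at 461 and 502 and at 686, 771 and 766 normalised counts and rose 1.54-fold (0.62 ± 0.11, adjusted p = 0.00904). In each gene the highest WT con library was below the lowest NRF1 KD library. The calls for Psmb8 and Psmb9 held in every alternative run, and that for Psmb10 was lost without WT con library 2 (0.56, adjusted p = 0.0684).

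The promoters of Psmb8, Psmb9 and Psmb10 are printed because these genes rose in this comparison, and that of Psme1, which did not pass, is printed beside them for its interferon motif. Each runs from 250 bases before the RefSeq start to 30 after it (GRCm38.p6). In Psmb8 the capitals mark a match to GAS (TTCNNNGAA, a STAT motif), which begins 97 bases before the start. In Psmb9 they mark a GC box (GGGCGG, an Sp1 motif) 55 bases before the start. Psmb10 held none of the 4 motifs searched and has no capitals. In Psme1 they mark a match on the other strand to ISRE (GAAA, any 2 bases, GAAA, bound by interferon regulatory factors), which begins 9 bases after the start.
Psmb8, chr17:34197945-34198224, + strand: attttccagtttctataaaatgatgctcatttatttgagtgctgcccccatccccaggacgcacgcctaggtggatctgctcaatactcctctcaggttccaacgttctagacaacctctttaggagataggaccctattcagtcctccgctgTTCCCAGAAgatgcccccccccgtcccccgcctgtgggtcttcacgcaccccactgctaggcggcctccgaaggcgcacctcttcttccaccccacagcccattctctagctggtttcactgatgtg
Psmb9, chr17:34187301-34187580, - strand: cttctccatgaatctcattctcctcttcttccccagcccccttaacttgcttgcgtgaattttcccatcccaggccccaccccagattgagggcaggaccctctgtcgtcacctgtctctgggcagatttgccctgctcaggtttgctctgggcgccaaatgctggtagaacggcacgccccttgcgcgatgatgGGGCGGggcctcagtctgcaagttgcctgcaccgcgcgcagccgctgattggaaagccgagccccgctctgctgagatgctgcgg
Psmb10, chr8:105938363-105938642, - strand: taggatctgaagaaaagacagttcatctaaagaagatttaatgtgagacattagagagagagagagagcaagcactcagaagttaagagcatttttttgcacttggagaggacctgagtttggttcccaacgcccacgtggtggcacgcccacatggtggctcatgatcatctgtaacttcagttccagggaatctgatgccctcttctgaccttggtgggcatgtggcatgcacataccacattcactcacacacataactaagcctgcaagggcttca
Psme1, chr14:55578244-55578523, + strand: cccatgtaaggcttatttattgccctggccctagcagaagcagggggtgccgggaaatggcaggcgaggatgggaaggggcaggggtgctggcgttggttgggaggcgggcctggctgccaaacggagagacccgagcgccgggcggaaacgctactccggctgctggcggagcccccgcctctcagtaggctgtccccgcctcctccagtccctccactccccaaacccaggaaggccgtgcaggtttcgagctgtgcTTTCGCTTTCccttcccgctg

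Windows of 300 bases (250 before and 50 after the start) were searched on both strands for 9 of the 10 genes, and Usp14 had no entry. GAS was found in 8.3% of all 32851 windows of the table, ISRE in 3.44%, the GC box in 35.7% and the alpha-PAL motif (GCGCA, any base, GCGC) in 4.6%. Psmb8 was the only one of the 9 with GAS and Psme1 the only one with ISRE. The GC box was in 5 of the 9, Psme1 included, and the alpha-PAL motif in 0. These are matches of letters, not measured binding. The window of Psmb9 shares 275 bases with that of Tap1, which is read from the other strand, and the 2 genes share 212 exonic bases. Tap1, a subunit of the peptide transporter named here for this position, rose by 1.20 ± 0.25 on the log2 scale in NRF1 KD muscle (limma, adjusted p = 0.0135). Psmb8 (chromosome 17, 34197721 to 34201454) and Psmb9 (34181987 to 34187764) lie in the same part of chromosome 17, and Psmb8 shares 498 of its 3381 exonic bases with the antisense gene Gm20496.

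The activators and deubiquitinases split by sign in NRF1 KD muscle. Psme1 stood at 1379 and 1172 normalised counts in WT con and at 1500, 1747 and 1639 in NRF1 KD libraries, with no overlap (0.35 ± 0.11, adjusted p = 0.0608). Psme2 did not differ beyond its spread, with 1717 and 1529 against 1679, 1687 and 1611 (0.03 ± 0.09). Psme4 stood at 8792 and 8897 against 7346, 6232 and 6027 normalised counts (-0.44 ± 0.14, adjusted p = 0.0757). Usp14 stood at 3208 and 3081 against 2628, 2592 and 2344 (-0.32 ± 0.10, adjusted p = 0.0634). Uchl5 stood at 1722 and 1574 against 1277, 1408 and 1229 (-0.34 ± 0.14, adjusted p = 0.136). In each of these 3 genes all NRF1 KD libraries lay below both WT con libraries. Psme3 (-0.16 ± 0.10) and Psmf1 (-0.08 ± 0.13) had smaller differences. In all, the groups did not overlap in 8 of the 10 genes, beside 45.9% of all genes. Psme1 was called by edgeR on the recovered reads (adjusted p = 0.0422) and Psme4 in the fit of the 2 groups alone (adjusted p = 0.0443).

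Of 9 docking and other partners tested 4 fell and 0 rose in the same comparison, and of the 3 standard subunits 2 fell. Adrm1 fell by 0.55 ± 0.10 on the log2 scale (limma, adjusted p = 0.0104), Psmd2 by 0.55 ± 0.12 (adjusted p = 0.0173) and Psmd14 by 0.49 ± 0.10 (adjusted p = 0.0156). Pomp had -0.45 ± 0.14 (adjusted p = 0.0683). Of the standard subunits Psmb6 fell by 0.39 ± 0.10 (adjusted p = 0.0328) and Psmb7 by 0.46 ± 0.12 (adjusted p = 0.0333), and Psmb5 did not pass (-0.04 ± 0.19), with 2579, 2949 and 2339 normalised counts in NRF1 KD between the 3483 and 2075 of WT con libraries. Without WT con library 2, 0 of the 9 partners were called, and without NRF1 KD library 3 only 1. Of the standard subunits 1 was called without NRF1 KD library 1 and 0 without any other single library.

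Interferon and class I genes rose with the immunoproteasome subunits. Of 13 class I genes 7 rose and 0 fell, and their median was 0.62 on the log2 scale beside 0.00 over all genes. B2m, the light chain of class I molecules, rose by 0.87 ± 0.13 (limma, adjusted p = 0.00416) and the heavy chain H2-D1 by 0.87 ± 0.16 (adjusted p = 0.00900). Of 20 interferon response genes tested 12 rose and 0 fell, with a median of 0.85. Irf7, a regulator of type I interferon genes, stood at 74.0 and 82.4 normalised counts in WT con and at 331, 501 and 516 in NRF1 KD libraries (2.48 ± 0.21, adjusted p = 0.000512). Bst2 rose by 1.499 ± 0.17 (adjusted p = 0.00219). Fewer class I genes were called without NRF1 KD library 2 (3 genes) or 3 (2), or without WT con library 2 (2) or 3 (2). Of the interferon genes 7 were called without WT con library 2 and 8 without NRF1 KD library 3.

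Macrophage markers moved with these genes. All 13 rose, by a median of 1.66, and their sum was 8059 and 10707 normalised counts in WT con and 18680, 36617 and 37766 in NRF1 KD libraries. C1qa, a complement gene of macrophages, rose by 1.72 ± 0.25 (limma, adjusted p = 0.00414). Without WT con library 2, 5 of the 13 were called, and without NRF1 KD library 3, 8. The dendritic cell markers summed to 167 and 149 normalised counts in WT con and to 367, 623 and 662 in NRF1 KD libraries, and Itgax rose by 2.36 ± 0.35 (adjusted p = 0.00421). None of the markers of these 2 lists was at 0. NRF1 KD library 1 had the lowest macrophage sum of its group and the lowest sum of Psmb8, Psmb9 and Psmb10 (1401 against 1632 and 1626 normalised counts), which still lay above 864 and 839 in WT con. Double KD library 3 was also lowest in both sums (14454 and 1012), and innervated library 2 highest in both (364 and 36.3 CPM). Denervated WT library 1 and PAX4 KO library 2 had the highest macrophage sums of their groups (881 and 1386 CPM). Their subunit sums were the lowest (26.2 and 32.5 CPM). WT con library 3 had the higher macrophage sum and the lower subunit sum of its group. The part of these cells in the result was not tested.

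**Figure D3:**
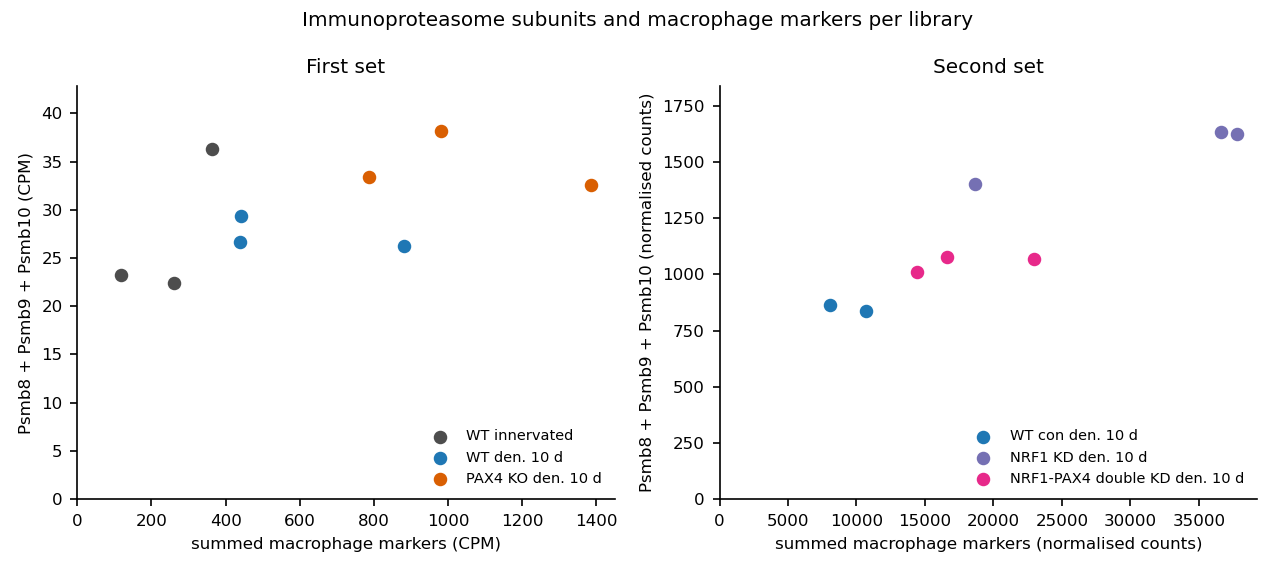
Summed level of Psmb8, Psmb9 and Psmb10 (vertical axis) against the summed level of 13 macrophage markers (horizontal axis) in each library, in CPM for the first set and in normalised counts for the second; den. is denervated. The 3 NRF1 KD points lie highest for the subunits, at 1401 to 1632 normalised counts, and the innervated point at 36.3 CPM is library 2.

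In double KD muscle against WT con muscle no gene of the 10 passed in limma, and 0 were called by edgeR on the recovered reads. An unadjusted p under 0.05 in limma was held by 2, Psmb8 and Psmb10, beside 3350 of all 15624 genes. Over all genes 2.39% were called higher and 1.7% lower. Psmb8 stood at 386, 324 and 296 normalised counts in double KD libraries 1 to 3, above both WT con libraries (0.36 ± 0.15, adjusted p = 0.213). Psmb9 stood at 129, 147 and 135 (0.32 ± 0.20, adjusted p = 0.385) and Psmb10 at 555, 605 and 582 (0.27 ± 0.11, adjusted p = 0.198), also above both. Psme4 stood at 6645, 6241 and 8692 (-0.31 ± 0.14, adjusted p = 0.241), Usp14 at 2733, 2662 and 3071 (-0.16 ± 0.10) and Uchl5 at 1342, 1293 and 1749 normalised counts (-0.19 ± 0.14). Double KD library 3 was the high one of its group for each of these 3, and for Uchl5 it lay above both WT con libraries. Psme1 had 0.22 ± 0.11, Psme2 -0.09 ± 0.09, Psme3 -0.10 ± 0.10 and Psmf1 -0.11 ± 0.13 on the log2 scale. In 7 of the 10 genes the groups did not overlap, beside 35.7% of all genes. Adrm1 fell by 0.43 ± 0.10 (adjusted p = 0.0488) and Psmd2 by 0.55 ± 0.12 (adjusted p = 0.0330). Neither was called without double KD library 2 or either WT con library, nor Adrm1 without double KD library 3 or Psmd2 without double KD library 1 (adjusted p = 0.0660 to 0.212 over both). With all libraries kept, Adrm1 was also not called by edgeR on the recovered reads (adjusted p = 0.0686), on the deposited log2 values (0.0546) or at a pseudocount of 0.1 (0.0505), and neither gene was called with the 2 groups alone (0.108 and 0.0632). Of 20 interferon genes 6 rose, Irf7 by 1.79 ± 0.21 (adjusted p = 0.00329). That count was 1 without double KD library 2 or WT con library 2, 2 without double KD library 3 and 3 without double KD library 1. Of 13 class I genes 0 were called. The macrophage markers summed to 22962, 16636 and 14454 normalised counts.

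The direct comparison of double KD with NRF1 KD muscle asks whether the 2 knockdowns differ. No gene of the 10 passed, beside 0.0768% of all genes called higher and 0.0576% called lower (21 of 15624 in all). In limma 3 had an unadjusted p under 0.05, the 3 immunoproteasome subunits, beside 1756 of all 15624 genes. By edgeR on the recovered reads 0 of the 10 were called. Psmb8 stood at -0.79 ± 0.14 on the log2 scale (adjusted p = 0.0656), Psmb9 at -0.77 ± 0.18 (adjusted p = 0.145) and Psmb10 at -0.35 ± 0.10 (adjusted p = 0.215). For each of the 3, every double KD library lay below every NRF1 KD library, beside 8.28% of all genes with such a split in the lower direction. Psmb8 was called without NRF1 KD library 1 (-0.86, adjusted p = 0.0421), without double KD library 1 (-0.89, adjusted p = 0.0197) and in the fit of the 2 groups alone (adjusted p = 0.0419). The other 7 genes lay between -0.14 for Psme1 and 0.16 for Usp14. All 13 macrophage markers had negative fold changes with 0 called, and the sums of the 2 groups overlapped. Of 13 class I genes 12 were negative and 0 were called, led by B2m (-0.61 ± 0.11, adjusted p = 0.0824). Without NRF1 KD library 1, 5 macrophage, 3 class I and 2 interferon genes were called lower, and without double KD library 1, 3 class I genes.

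**Figure D4:**
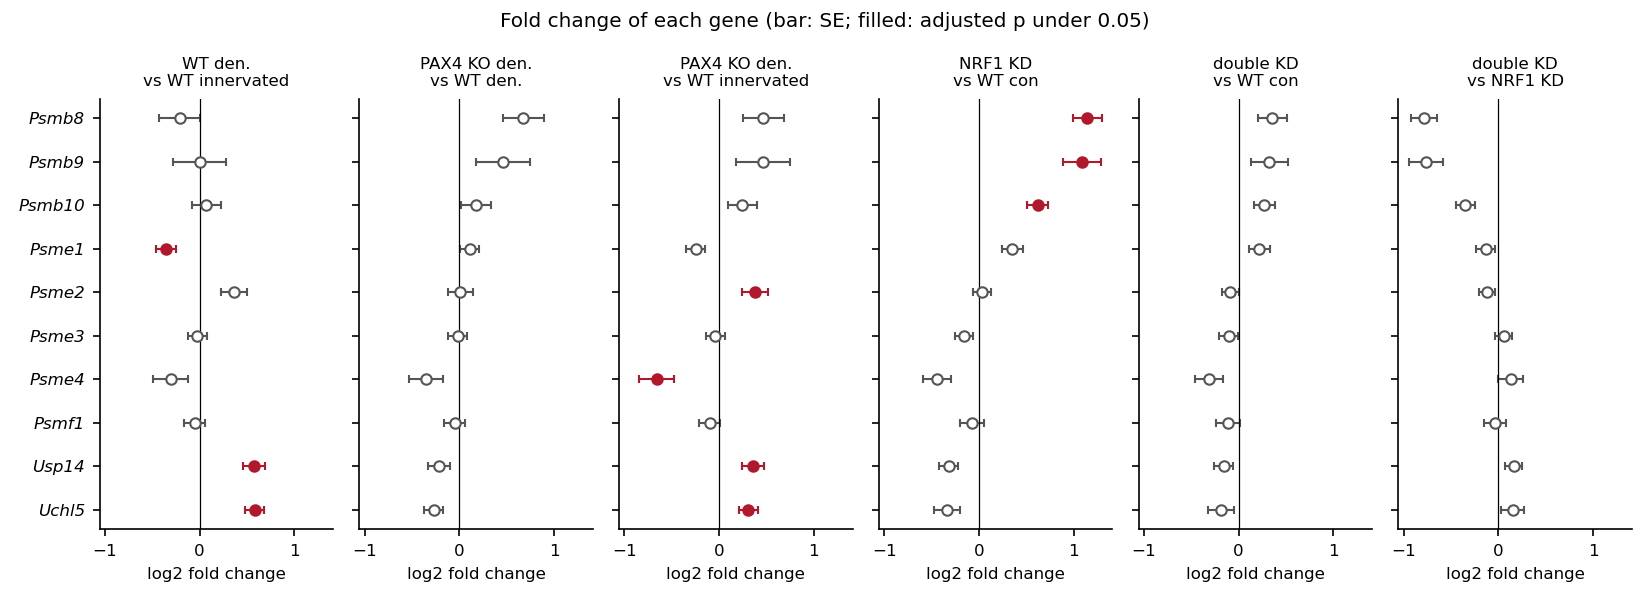
Log2 fold change (horizontal axes) of each of the 10 genes in the 6 comparisons, with the SE as bars; filled red points have an adjusted p under 0.05, and den. is denervated. The 3 immunoproteasome subunits are filled in NRF1 KD against WT con, at 0.62 to 1.14, and Usp14 and Uchl5 in denervated against innervated muscle, at 0.57 and 0.58.

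The level of each immune subunit was also divided by that of its standard counterpart within a library, which removes the scaling between libraries. These log2 ratios are not corrected for gene length, so only their differences between groups are read. Psmb8 to Psmb5 was -2.30, -2.26 and -1.98 in NRF1 KD libraries and -3.63 and -3.11 in WT con, a difference of 1.19. Psmb9 to Psmb6 was -5.18, -4.83 and -4.59 against -6.28 and -6.44, a difference of 1.49. Psmb10 to Psmb7 was -4.01, -3.80 and -3.59 against -4.94 and -4.83, a difference of 1.08. The groups did not overlap in any of the 3 ratios. In double KD muscle the same ratios were higher than in WT con by 0.87, 0.65 and 0.59, also with no overlap. For each of these 6 differences the exact permutation test, two-sided, gave p = 0.2, the smallest that 2 against 3 libraries allow (adjusted p = 0.277 over 18 tests). How often other ratios split this way was not computed. Among single genes, groups did not overlap in 45.9% (NRF1 KD against WT con) and 35.7% (double KD against WT con).

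In the first set the ratios of PAX4 KO to denervated WT muscle differed by 0.78 for Psmb8 to Psmb5, 0.70 for Psmb9 to Psmb6 and 0.44 for Psmb10 to Psmb7, with no overlap. Denervation of WT muscle went with a Psmb8 to Psmb5 ratio that was lower by 0.72, at -4.05, -4.26 and -4.83 against -3.82, -3.41 and -3.77, again with no overlap. These 4 differences had p = 0.1 in the exact permutation test, two-sided, the smallest that 3 against 3 allow (adjusted p = 0.257). When single libraries were left out, the denervation difference of Psmb8 to Psmb5 ranged from -0.88 to -0.49. The denervation differences of Psmb9 to Psmb6 (-0.24) and Psmb10 to Psmb7 (-0.13) came with overlapping groups. Between double KD and NRF1 KD the differences were -0.31, -0.84 and -0.50, and only the Psmb8 to Psmb5 ratio overlapped. For single genes the share without overlap was 16.9% in PAX4 KO against denervated WT muscle and 46.6% in denervation. It was 16.3% in double KD against NRF1 KD.

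**Figure D5:**
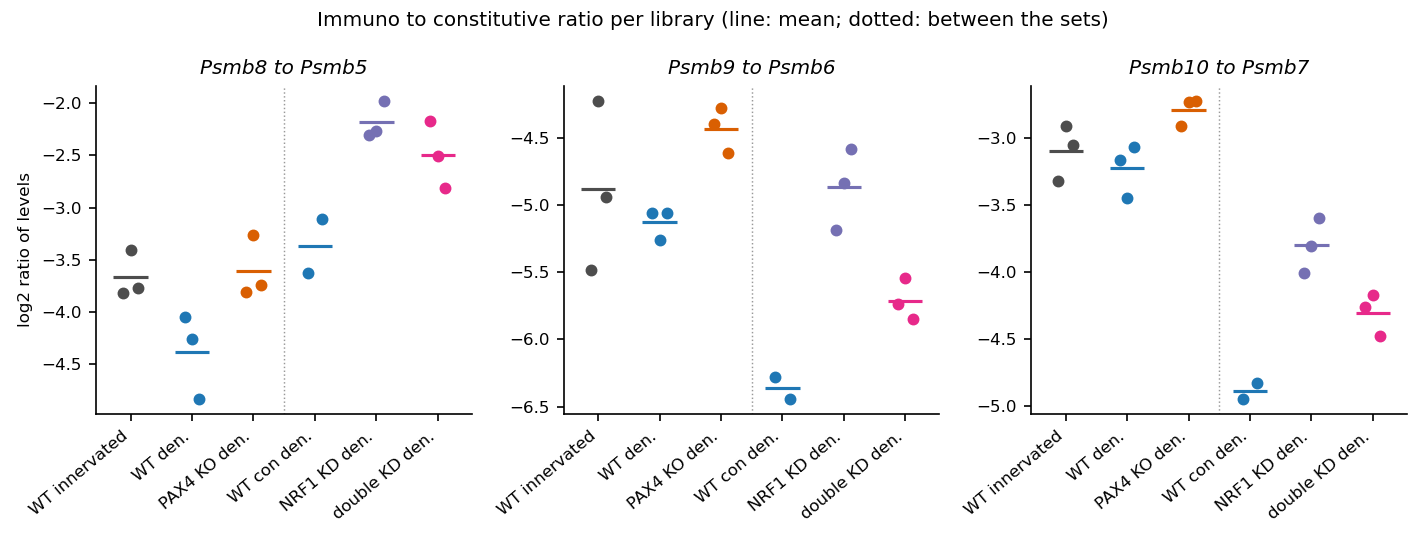
Log2 ratio of each immunoproteasome subunit to its standard counterpart (vertical axes, not corrected for length) in each library of the 6 groups; den. is denervated, points are libraries, lines are group means and the dotted line separates the sets. All 3 NRF1 KD points lie above both WT con points in each ratio, by 1.08 to 1.49 on average.

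The genes whose levels followed Psmb8 and Psme4 most closely over the 9 libraries of the first set were found by the root mean square difference of centred log2 CPM among 9987 genes. For Psmb8, which varied by an SD of 0.345, these were Rnf149 (0.148), a membrane ubiquitin ligase, H2-D1 (0.152), a class I heavy chain, and Selenon (0.156). For Psme4, with an SD of 0.336, they were Ryr1 (0.0842), the calcium release channel of muscle, Ccdc43 (0.0984) and Rbfox1 (0.105), a splicing factor. In the 8 libraries of the second set, where this choice was not made, H2-D1 ranked 187 of 15616 genes for Psmb8 and Ccdc43 ranked 221 for Psme4. The other 4 ranked between 530 and 1530. The libraries share groups and depth, and no test was made.

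Results of the authors' own comparisons were taken from 2 tables, 1 for each set. Under the heading CvsKd the authors' deposited table of the second set holds an adjusted p of 2.42e-08 for Psmb8, 9.91e-05 for Psmb9 and 0.00023 for Psmb10, and it also has 0.0449 for Psme1, 0.0392 for Psme4 and 0.0465 for Usp14, which did not pass in limma. The authors' deposited table of the first set has an adjusted p of 0.00108 for Usp14, 0.00334 for Uchl5, 0.0105 for Psme1 and 0.0150 for Psme2 in denervated against innervated muscle.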

How the data were processed

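RNA from mouse skeletal muscle was extracted with TRIzol and made into libraries with a SMARTER kit, per the labels' protocols. The first deposited table holds raw counts per gene. The second, per the file headers and its values, holds log2 values that the authors made with a variance-stabilising transform, beside the mean normalised count as a deposited signal, log2 fold changes and adjusted p-values of the authors' comparisons. Another deposited table holds the authors' comparisons of the first set, of which adjusted p-values were used. The submitters' processing notes name GRCm 38 and mm 10, and no aligner, counter or strandedness is given in the sources used here. Of 23 labelled samples 17 had a column, and the other 6 were not analysed here.

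Counts were tested with edgeR 4.0.16 (R 4.3.3, TMM scaling, filterByExpr, quasi-likelihood F test, 3 groups in 1 fit). The log2 values were turned back into normalised counts (deviation from the deposited mean at most 3.34e-07%), which gave whole reads within 0.05 for 100.0% of values, and log2(normalised count + 1) was tested with limma 3.58.1. A fold change on that scale understates the change of low genes. DESeq2 1.42.0 was run on the first set as an alternative. P-values were Benjamini-Hochberg adjusted over all genes tested, with a threshold of 0.05. Libraries of the first set are numbered by the ascending number in the column name, which was matched to a group and not to a single sample. Lengths are merged exons of GENCODE on GRCm38, and promoters are from RefSeq. Procedures were tested on simulated data.

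The 10 genes and the 20 lists were chosen with earlier results of these data known. Named genes were all 10, the standard subunits, Adrm1, Psmd2, Psmd14 and Pomp, and from each other list at most 2 called genes in each direction, those with the smallest adjusted p (smallest p where none was called). Alternatives were other size factors, no filter, other pseudocounts, the untransformed deposited log2 values, a count test on recovered reads, the compared groups alone, a replicate block and leaving out each library. One result of a list of other ubiquitin genes is not reported here.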

Additional observations from a re-analysis of the deposited data

How the results depend on the processing

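Of 1522 recomputed values 1311 were classed as unchanged. For fold changes this meant the same direction and side of the threshold (1044 of 1207). For ratios it meant the same sign (99 of 102), and for counts a change of at most 1.5 times (168 of 213). Of the rest, 93 fold changes lost the threshold, 26 gained it and 47 values changed sign. The other 45 were counts that moved by over 1.5 times or to or from 0. The cause of these changes was not tested. One alternative, the fit without innervated library 2 and denervated WT library 1, was chosen after seeing the data. In denervated against innervated muscle, members called lower came to 0 in that fit and without the filter on low counts (0 to 1 when single libraries were left out). That fit gave log2 fold changes of 0.07 for Psmb8, 0.55 for Psmb9 and 0.01 for Psme3, and Psmb9 had 0.0089 without the filter, 0.0066 with the 2 groups alone and 0.11 with the replicate block. Leaving out single libraries gave ranges of -0.35 to 0.10 for Psmb8, -0.24 to 0.50 for Psmb9, -0.0244 to 0.255 for Psmb10, -0.0722 to 0.0206 for Psme3, -0.0926 to 0.0122 for Psmf1 and -0.54 to 0.0867 for the Psmb9 to Psmb6 ratio. In PAX4 KO against denervated WT muscle, all genes called numbered 192 in DESeq2, 456 without the filter, 169 in the added fit and 1 to 26 without single libraries. Psme2 stood at -0.0187 with DESeq2 size factors, -0.0202 in DESeq2, -0.0037 without the filter and -0.0687 in the added fit. Without single libraries it ranged from -0.0655 to 0.095, Psme3 from -0.092 to 0.0317, Psmf1 from -0.109 to 0.0229, Psmb5 from -0.263 to 0.0617 and Adrm1 from -0.26 to 0.0069. In PAX4 KO against innervated muscle, members called higher numbered 0 with DESeq2 size factors, 1 in DESeq2, 0 without the filter, 1 with the 2 groups alone and 0 to 4 without single libraries, and members called lower 0 to 1. Psmb7 stood at 0.0288 in the added fit, and ranges were -0.151 to 0.0689 for Psmb7, -0.117 to 0.0064 for Psme3 and -0.11 to 0.19 for the Psmb8 to Psmb5 ratio.

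In NRF1 KD against WT con, 1 member, Psme4, was called lower with the 2 groups alone, and all genes called numbered 550 to 1611 without single libraries. Ranges were -0.0501 to 0.118 for Psme2 and -0.42 to 0.33 for Psmb5. In double KD against WT con, 231 genes were called with the 2 groups alone and 86 to 692 without single libraries. In double KD against NRF1 KD, called genes numbered 1 at a mean of at least 50 normalised counts, 79 with the 2 groups alone, 1 at a pseudocount of 0.1 and 1 to 158 without single libraries. Members called lower were 1 with the 2 groups alone and 0 to 1 without single libraries. Ranges were -0.0157 to 0.223 for Psme4, -0.14 to 0.0187 for Psmf1, -0.0868 to 0.0758 for Psmd2 and -0.0173 to 0.195 for Pomp.

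Same-numbered innervated and denervated libraries correlated at 0.26, 0.06 and 0.31 in their deviations from the group means, and each library correlated best with its own number, a hint from the data. The innervated and denervated WT columns share their 3 numbers, and no source used here says what a number marks. In the second set these values ran from -0.39 to 0.30, so the numbers were not taken as pairs. With a replicate block 5034 genes were called for denervation, 630 for NRF1 KD, 136 for double KD and 9 for double KD against NRF1 KD. With that block Psme2 was called for denervation (0.38, adjusted p = 0.0437) and Psmd2 was not (0.42, adjusted p = 0.0754). For NRF1 KD the block ended the calls for Psmb6, Psmb7, Psmd2 and Psmd14 (adjusted p = 0.0817 to 0.146), and for double KD those for Adrm1 and Psmd2 (0.143 and 0.139). No paired analysis was possible because the columns share no numbers for the comparisons of PAX4 KO muscle. Depth limits the lowest genes most: Psmb9 had 61 reads in innervated library 1.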

Other observations

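Markers of other cells of the muscle moved in the same libraries. Of 9 endothelial markers 6 fell and 0 rose in denervated against innervated WT muscle (edgeR), with a median log2 fold change of -0.59. Of 9 Schwann cell markers 5 fell and 0 rose there, with a median of -1.61. In NRF1 KD against WT con muscle 0 of 9 endothelial markers and 0 of 7 skeletal muscle markers were called in limma, with 2 and 0 at an unadjusted p under 0.05. Over all 15624 genes 4311 had such a p in this comparison. Of 4 neutrophil markers tested there 3 rose and 1 fell (0 fell without NRF1 KD library 3 or WT con library 2), and of 6 fibroblast markers 3 rose and 0 fell. The 4 neutrophil markers summed to 2897 and 2044 normalised counts in WT con and to 1248, 1383 and 1087 in NRF1 KD libraries. Of 7 T and NK cell markers tested 1 rose, and of 2 B cell markers 0 were called, with 1 at an unadjusted p under 0.05. The 5 dendritic cell markers were all negative in double KD against NRF1 KD muscle, with 5 at an unadjusted p under 0.05, 0 called and a median of -1.50. Over all 15624 genes 1756 had such a p in that comparison.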
